A study of Mus musculus with 8 samples.

Results

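The regions described here are the accessible regions of mouse induced pluripotent stem cells that lie at the genes for transfer RNAs (tRNAs), the adaptors that carry amino acids to the ribosome. A region was taken if it overlapped, by 1 bp or more, the zone of 1 kb around the span of an annotated tRNA gene on chromosomes 1 to 19. This gave 279 regions, which is 0.376% of the 74156 regions on these chromosomes and comes from an atlas of 76872 regions in all. The atlas covers the whole series and lists only where each region lies. It holds no value for any library.

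The assay was ATAC-seq, where the transposase Tn5 cuts open chromatin and tags it for sequencing, applied to 8 libraries of 50000 cells each, 2 (A and B) in each of 4 groups. All groups are 1 clonal line carrying FUCCI2, a pair of fluorescent cell cycle reporters, grown on a layer of irradiated feeder cells in medium with LIF, serum, a MEK inhibitor and a GSK3 inhibitor. Mitotic cells were shaken off after 6 h in 200 ng/ml nocodazole, a drug that blocks spindle assembly, and were taken at once or 1 h or 3 h after transfer to fresh medium, while asynchronous cells had no drug. The series title concerns how stem cell identity is reset on entry into G1, but the atlas does not show which libraries a region came from, so no groups were compared and the depth behind each region is unknown. The labels name total RNA as the molecule, against the ATAC-seq titles and the Tn5 protocol, which were followed here. As a check of the cells, genes were scored for a region within 1 kb of an end of the gene. This held for 7 of 8 pluripotency genes (all but Esrrb), for 1 of 8 genes of feeder fibroblasts (Col1a1) and for 62.3% of all protein-coding genes. Regions farther inside a gene were not counted, and the span of Esrrb held 16. Among the feeder genes without one at an end, only Pdgfra had any inside its span, 3.

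tRNA genes are short and are transcribed by RNA polymerase III. Their promoter lies inside the transcribed gene as 2 short elements, box A and box B, which the factor TFIIIC binds before it places TFIIIB upstream of the start, and TFIIIB in turn recruits the polymerase. The genome holds many near-identical copies for each amino acid (isotype) and for each anticodon, often in clusters, and only some copies are active in a given cell. An active tRNA gene carries these factors in place of a nucleosome.

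The sequences of 5 whole tRNA genes show the internal promoter that the regions cover. They come from the RefSeq promoter windows and miRNA hairpins (GRCm38.p6), which hold all or at least 60 bases of 7 tRNA genes, and each of these 5 lies inside a region of the atlas. Capitals mark the letters matched to box A, nearer the 5′ end, and to box B, nearer the 3′ end. The gene table gives no strand, so the strand shown is the one on which the boxes read in order.
n-TAagc16, alanine, chr13:21222586-21222657, plus strand: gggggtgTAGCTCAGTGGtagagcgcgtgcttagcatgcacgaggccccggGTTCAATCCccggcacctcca
n-TRtcg5, arginine, chr7:79466419-79466491, plus strand: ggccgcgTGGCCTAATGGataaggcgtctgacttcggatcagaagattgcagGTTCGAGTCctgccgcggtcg
n-TVcac9, valine, chr13:23446142-23446214, minus strand: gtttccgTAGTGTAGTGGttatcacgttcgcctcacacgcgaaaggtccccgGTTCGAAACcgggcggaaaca
n-TTagt9, threonine, chr7:35234770-35234843, minus strand: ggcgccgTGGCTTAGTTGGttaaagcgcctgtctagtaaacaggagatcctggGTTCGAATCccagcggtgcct
n-TItat14, isoleucine, chr13:21896938-21897031, minus strand, from the hairpin annotated as Mir1983 on the same span: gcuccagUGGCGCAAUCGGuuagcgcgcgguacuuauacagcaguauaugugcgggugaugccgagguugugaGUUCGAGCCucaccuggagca

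Box A began at base 8 of all 5 genes. Box B began at base 52 in the alanine gene, at 53 in the arginine and valine genes, at 54 in the threonine gene and at 74 in the isoleucine gene, which is 94 bases long against 72 to 74 for the others. The covering regions were 444 bp wide at n-TAagc16, 968 bp at n-TRtcg5, 729 bp at n-TVcac9, 599 bp at n-TTagt9 and 748 bp at n-TItat14, so each region was far wider than its gene. Box B was searched on both strands as GTTCNANNC, with N for any base, and its letters occur in 9.32% of all 32851 promoter windows of 300 bases and in 4 of the 4 windows that hold a whole tRNA gene. Box A, searched by its usual consensus, followed by box B at a distance of 20 to 90 bases occurred in 0.676% of all windows and again in 4 of 4. Such a match describes the letters and is not a measured binding site.

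A pair of genes is shown in part because each overlaps the promoter window of another gene. n-TLaag4 lies in the window of Polr3e, which encodes a subunit of RNA polymerase III itself, and n-THgtg7 lies in the window of the non-coding gene BC107364. Box A was matched in neither. The stretch of n-TLaag4 lacks the first 11 bases of the gene. That of n-THgtg7 lacks none at the 5′ end, so its letters did not match the box A consensus searched.
n-TLaag4, leucine, chr7:120917528-120917598, plus strand, 71 of 82 bases: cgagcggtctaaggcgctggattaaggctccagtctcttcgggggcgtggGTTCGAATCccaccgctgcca
n-THgtg7, histidine, chr3:96452495-96452556, plus strand, 62 of 72 bases: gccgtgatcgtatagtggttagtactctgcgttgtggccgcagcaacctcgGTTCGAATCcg
n-TLaag4 lay inside a region of 1247 bp (chr7:120917501-120918747). n-THgtg7 was not touched and had 3 regions within 1 kb. The nearest, at a distance of 46 bp, was of the smallest width in the atlas, 73 bp. In all, 10 promoter windows overlapped a tRNA gene, and 9 of those 10 tRNA genes were touched by a region. Over all 386 tRNA genes 68.1% were touched, and at ends of protein-coding genes 45 of 47 were. Among the 10 genes, the widest regions after that at Polr3e were 971 bp at n-TLcaa3 in the window of Gm39827 and the 968 bp at n-TRtcg5 in the window of Polg, which encodes the mitochondrial DNA polymerase.

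Most tRNA genes had a region. Of 386 tRNA genes placed on chromosomes 1 to 19, 287 (74.4%, 95% Wilson interval 69.8 to 78.5) had a region within 1 kb, and for 263 (68.1%, 63.3 to 72.6) a region touched the gene itself. Over all 46709 genes of these chromosomes, the share with a region within 1 kb was 50% and the share touched was 46.0%. Protein-coding genes reached 75.7% and 73.4%, but their median length was 17578.5 bp against 72 bp for tRNA genes, and a longer span has more room for a region. Intervals in the text treat genes as independent, which clustered copies are not.

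Genes of like size are the nearer comparison. Of the 4155 non-tRNA genes up to 200 bp long, 13.4% had a region within 1 kb and 5.37% were touched. The shares with a region within 1 kb were 11.8% for small nucleolar RNA genes, which guide RNA modification, 11.7% for small nuclear RNA genes, whose main products act in splicing, and 19.3% for microRNA genes. tRNA genes were thus touched more often than any of these types, whose touched shares were 3.68%, 5.84% and 7.13%. The genes for 5S ribosomal RNA, also transcribed by RNA polymerase III, lay between, with 24 of 49 (49.0%, 35.6 to 62.5) having a region within 1 kb and 21 touched.

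**Figure D1:**
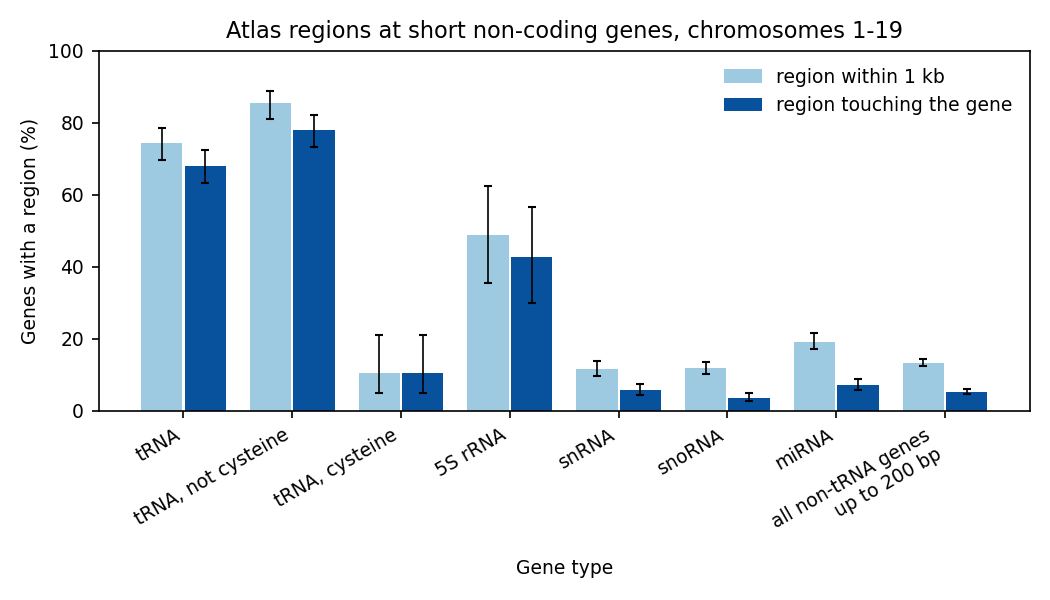
Share of genes (%) with an atlas region within 1 kb of the gene (light bars) or touching it (dark bars), by gene type, on chromosomes 1 to 19. Error bars are 95% Wilson intervals over genes. tRNA genes reach 74.4% and 68.1%, non-tRNA genes of up to 200 bp reach 13.4% and 5.37%, and cysteine tRNA genes stand apart from the other tRNA genes.

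Ends of protein-coding genes are often accessible, and some tRNA genes lie there. A gene or region was placed at a coding end if it came within 1 kb of the annotated left or right border of a protein-coding gene; starts and far ends were not separated. All 47 tRNA genes at a coding end had a region within 1 kb, and 45 were touched, where 48.7% of the 279 other short genes at coding ends had one and 24% were touched. Away from coding ends, 240 of 339 tRNA genes (70.8%, 65.7 to 75.4) had a region and 218 (64.3%) were touched, against 10.8% and 4.02% of 3876 other short genes. The high share at tRNA genes was therefore also present away from coding ends. Of 33 tRNA genes inside the span of a protein-coding gene, 20 (60.6%) had a region within 1 kb and 15 (45.5%) were touched.

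Most of the regions touched a tRNA gene rather than only lying near one. Of the 263 touched genes, 225 (85.6%) lay wholly inside the region and 38 in part. Of the 279 regions, 180 touched exactly 1 tRNA gene, and for these the centre of the region lay a median of 99.5 bp from the centre of the gene (quartiles 40.4 and 166 bp, largest 709.5 bp). The centres were within 200 bp in 145 of the 180 (80.6%). These 180 regions were chosen for touching a gene and had a median width of 430 bp. That alone keeps most centres close, so the offsets describe the regions and do not show a placement. A further 36 regions touched more than 1 gene, and 63 touched none and lay in the zone around a gene.

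Coverage by regions fell away within about 1 kb of the gene centre. Around the 284 tRNA genes that were not for cysteine and lay away from coding ends, 65.3% of bases in the first 100 bp from the centre were inside a region. At 500 to 600 bp this was 23.5%, at 1000 to 1100 bp it was 10% and at 4900 to 5000 bp 5.21%. Around other short genes away from coding ends it was 3.06% at the centre and 1.74% at 4900 to 5000 bp. Cysteine tRNA genes away from coding ends (55 genes) had 6.24% at the centre and 0.382% at 4900 to 5000 bp. Distances to the nearest region were taken over all 386 tRNA genes, with cysteine genes and those at coding ends included. Of these, 14 untouched genes had a region within 500 bp, 10 had one between 500 bp and 1 kb away, and 8 at 1 to 2 kb. A further 24 had none within 50 kb, most of them cysteine genes of chromosome 6.

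**Figure D2:**
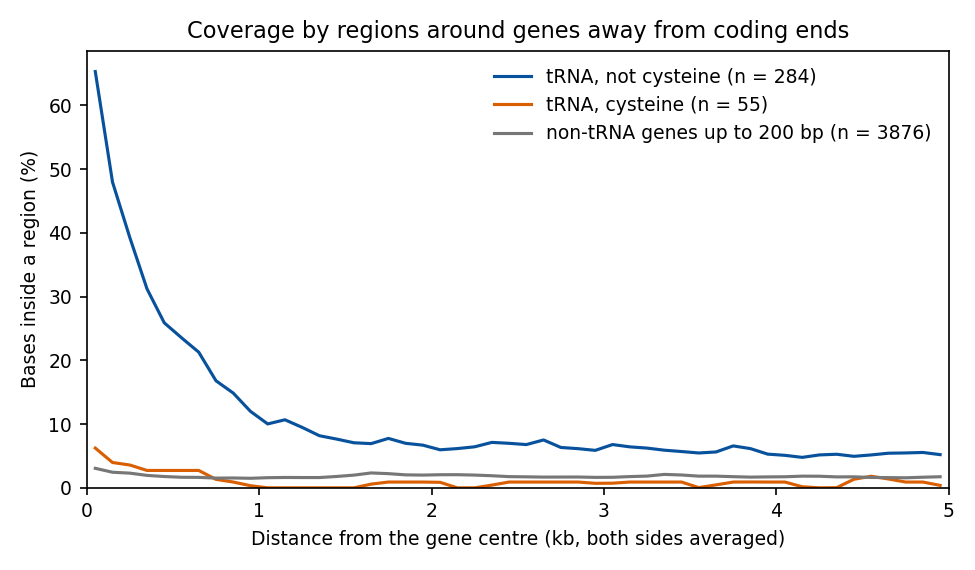
Percentage of bases inside an atlas region against distance from the gene centre (kb, both sides averaged, bins of 100 bp), for tRNA genes away from coding ends without cysteine (n = 284), cysteine tRNA genes (n = 55) and other genes of up to 200 bp (n = 3876). The blue line starts at 65.3% and is at 10% past 1 kb, while the others start at 6.24% and 3.06%.

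Just inside the limit of 1 kb were a region of 254 bp at 981 bp from n-TKctt18, one of 985 bp at 983 bp from n-TVcac7 and one of 131 bp at 999 bp from n-TAagc8. Just outside were regions of 754 bp at 1034 bp from n-TGgcc4, of 79 bp at 1053 bp from n-TDgtc1 and of 135 bp at 1063 bp from n-TYgta8. Of the regions that touched no tRNA gene, 33 lay up to 500 bp from the nearest one, 30 lay beyond that and up to 1000 bp, 7 from there up to 1500 bp and 7 more up to 2000 bp.

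By amino acid, every one of the 20 isotypes had at least 1 gene with a region, and 15 had one at over 80% of their genes. Arginine was complete at 23 of 23 genes on 10 chromosomes, and phenylalanine at 7 of 7. Leucine had a region at 23 of 25 genes, proline at 14 of 15, serine at 20 of 22, alanine at 19 of 21 and tyrosine at 9 of 10. Threonine had 15 of 17, methionine 14 of 16, tryptophan 7 of 8, glutamine 13 of 15, valine 18 of 21, glutamate 17 of 20, histidine 9 of 11 and isoleucine 13 of 16. The 5 isotypes at 80% or less were asparagine with 10 of 13, aspartate with 12 of 16, glycine with 21 of 28, lysine with 17 of 25 and cysteine with 6 of 57. Apart from cysteine (10.5%, 4.91 to 21.1), even the lowest, lysine (68.0%, 48.4 to 82.8), had a Wilson interval that overlapped those of all but arginine. The counts thus do not settle the order of neighbours.

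**Figure D3:**
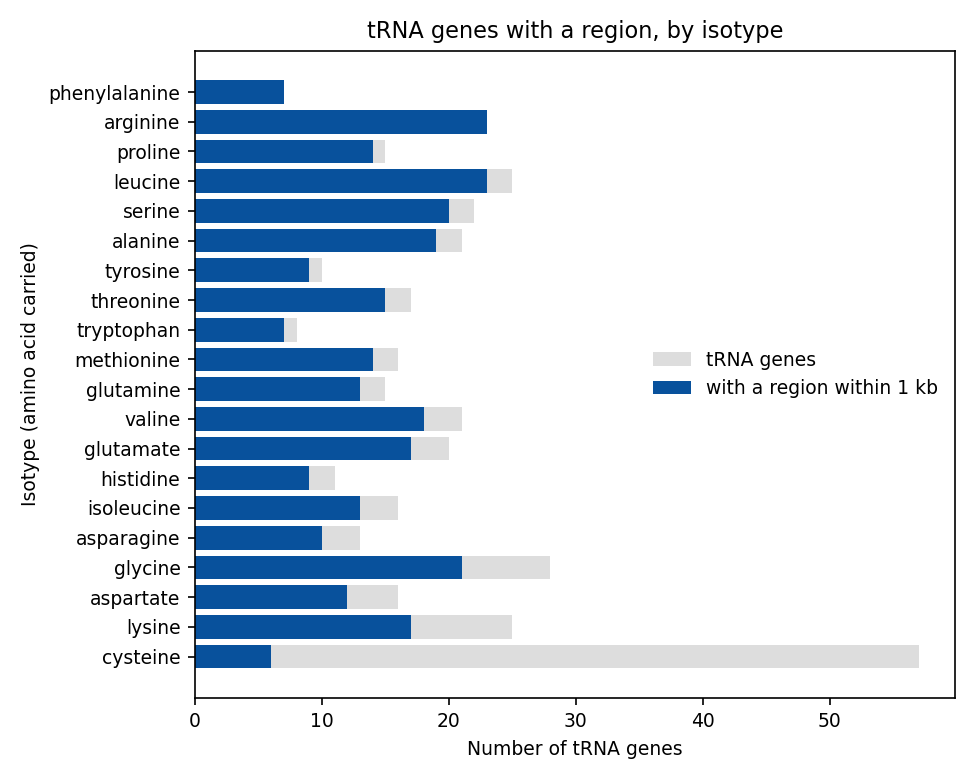
Number of tRNA genes of each isotype on chromosomes 1 to 19 (grey) and the number of them with an atlas region within 1 kb (blue), ordered by share. The blue part fills the bar for phenylalanine (7 of 7) and arginine (23 of 23) and covers 6 of 57 genes for cysteine.

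By anticodon, the genes form 48 families, and 46 had a region at 1 gene or more. In 23 families, 111 genes together, every gene had one. Among these were all 13 genes for alanine AGC, all 8 for glutamate TTC, all 8 for valine AAC, all 7 for serine AGA and all 7 for glycine TCC. The pair of families without a region had 1 gene each, n-THatg1 (histidine ATG) and n-TSgga1 (serine GGA); in mammals their codons are read by tRNAs with the anticodons GTG and AGA. Families of an isotype could differ: for glycine, besides TCC at 7 of 7, GCC had a region at 11 of 14 genes and CCC at 2 of 6. Lysine CTT had one at 16 of 23. The annotation names do not tell initiator from elongator methionine genes, and no selenocysteine gene was told apart. n-TRtct5 on chromosome 1, looked up after its values were seen because this arginine gene is known for expression in the nervous system, was not touched and had a region of 528 bp at a distance of 53 bp.

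Cysteine made up 51 of the 99 genes without a region, and 48 of these lie together. The run spans 229.667 kb on chromosome 6 (chr6:48133937-48363603), holds tRNA genes for cysteine only, and had a region within 1 kb at 0 of 48 genes. The nearest region was 4362 bp away for the closest of them and a median of 40281.5 bp away over the 48. The run contained 2 regions, of 324 bp (chr6:48172486-48172809) and 256 bp (chr6:48228762-48229017), where the equally long stretches below and above it held 16 and 10.

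The other 9 cysteine genes differed from the run: 6 had a region and each of these was touched. n-TCgca57, on chromosome 6 outside the run, lay inside a region of 432 bp. On chromosome 11, n-TCgca55 and n-TCgca54 shared a region of 1447 bp (chr11:97987550-97988996), n-TCgca51 lay in one of 459 bp, and n-TCgca56 was partly covered by one of 90 bp. n-TCgca52 on chromosome 17 lay in a region of 1035 bp. The 3 without a region were n-TCgca47 and n-TCgca53 on chromosome 9 and n-TCgca18 on chromosome 11, with the nearest region at 7738, 3802 and 2986 bp. Outside the run, 287 of 338 tRNA genes of any isotype (84.9%, 80.7 to 88.3) had a region. The sources used here do not give the treatment of reads that map to several near-identical copies, and its part in these counts was not tested.

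Of the 51 genes without a region outside the run, 35 stood alone and the median distance to a region was 7235 bp. A region lay within 5 kb of 22 of them and more than 10 kb from 19. The farthest was n-TNgtt2, an asparagine gene, at 144595 bp.

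tRNA genes no more than 10 kb apart were joined into clusters, which gave 61 clusters of 2 or more genes (286 genes) and 100 genes standing alone. A region lay at 1 gene or more of 55 clusters (90.2%, 80.2 to 95.4), and in 44 clusters every gene had one. Counted by gene, 223 of 286 clustered genes (78.0%, 72.8 to 82.4) and 64 of 100 single genes (64.0%, 54.2 to 72.7) had a region. In the 55 clusters with a region, 223 of 237 genes had one. The 6 clusters without a region were 5 of the cysteine run, with 22, 10, 9, 4 and 2 genes, and a glycine pair on chromosome 8, n-TGgcc11 and n-TGgcc10. Those with 3 or more genes and no region were thus all cysteine clusters.

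The largest cluster of all was the cysteine cluster of 22 genes (chr6:48244316-48317586), and another cysteine cluster, of 10 genes, tied for the smallest of the 5 largest; neither had a region. On chromosome 1, a cluster of 15 genes in 17.783 kb (chr1:171064164-171081946) had 11 regions, with a region within 1 kb of every gene and touching 14. It is built of 3 copies of the same order of 5 genes, glutamate CTC, glycine TCC, aspartate GTC, leucine CAG and glycine GCC, which begin 7628 and 7614 bp apart. In the copy that comes first by coordinate, 1 region of 1743 bp touched n-TEctc5, n-TGtcc1 and n-TDgtc3, and regions of 238 and 235 bp touched n-TLcag6 and n-TGgcc12. In the next copy, a region of 291 bp touched n-TEctc8, one of 882 bp touched n-TGtcc5 and n-TDgtc7, and one of 531 bp touched n-TGgcc13, while n-TLcag7 was untouched with its nearest region 527 bp away. In the last copy, a region of 1295 bp touched n-TEctc7 and n-TGtcc4, and 3 regions of 306, 150 and 562 bp touched the other genes. The same gene order thus carried differently divided regions, although the copies lie within 1 cluster. The copies also differ in position, as the regions touching the leftmost copy lay at a coding end and those touching the others did not. The part of position, or of reads that map to several copies, was not tested.

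**Figure D4:**
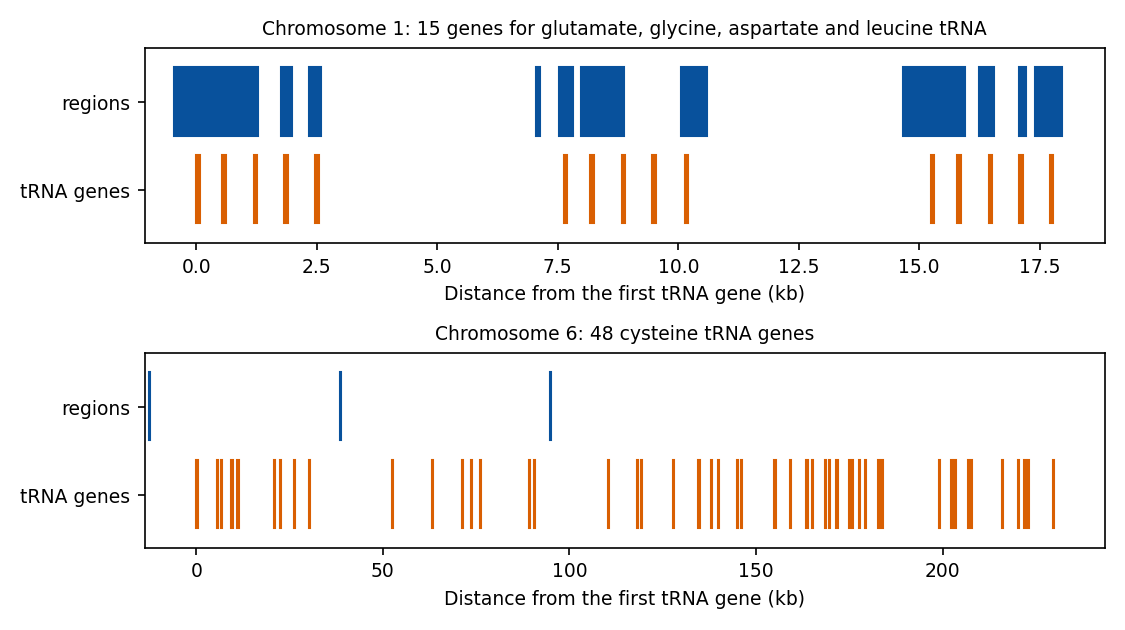
Regions (blue) and tRNA genes (orange) against distance from the leftmost tRNA gene (kb), to scale except that narrow marks are widened to be visible, for the cluster of 15 genes on chromosome 1 and the run of 48 cysteine genes on chromosome 6. In the upper map 14 of 15 genes are touched, and in the lower map no gene has a region within 1 kb.

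Chromosome 13 holds the most tRNA genes with a region. In 2.37 Mb (chr13:21160785-23530419) there were 104 tRNA genes, 97 of them with a region (93.3%), and 98 regions. The cluster at chr13:21907111-21940995 had 15 genes of 7 isotypes and 15 regions, and every gene but n-TDgtc13 had one. The cluster at chr13:23425646-23453514 had 14 genes of 9 isotypes and 11 regions, and n-TYgta6 and n-TKctt11 had none. In the cluster at chr13:21234045-21279768 all 10 genes had a region within 1 kb, with 9 touched and 11 regions. The most regions per gene, 1.5, was reached by 6 clusters, all of them pairs with 3 regions each, 4 on chromosome 13 and 2 on chromosome 11. On other chromosomes, 34 of 37 tRNA genes on chromosome 1, 41 of 47 on chromosome 11, 33 of 40 on chromosome 3 and all 10 on chromosome 19 had a region, and on chromosome 6, which holds the cysteine run, 4 of 53 did.

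Regions at tRNA genes were wider than the rest of the atlas. Their median width was 423 bp (95% interval of the median 369 to 478, quartiles 222.5 and 762.5, range 73 to 2060), against 280 bp (278 to 282) for the 73877 other regions. Widths over 1000 bp were found in 29 of the 279 (10.4%) against 3.72% of all regions, and the smallest width of 73 bp in 3 (1.08%) against 3.96%. The 216 regions that touched a tRNA gene had a median of 489.5 bp (432 to 579), while the 63 that lay only in the zone had a median of 225 bp (149 to 254), below that of the other regions.

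A wide region is more likely to reach a gene, so width is not wholly independent of how the regions were chosen. The 212 regions that touched another gene of up to 200 bp had a median of 490.5 bp (360 to 599), equal within their intervals to the regions touching tRNA genes. Away from coding ends, the medians were 453 bp (407 to 532) for 175 regions touching a tRNA gene and 330 bp (265 to 389) for those touching another short gene, and these intervals do not overlap. The 41 regions touching a tRNA gene at a coding end had a median of 782 bp (526 to 867), and the 15213 other regions at coding ends 525 bp (516 to 533).

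Widths also differed by cluster. The 56 regions touching a gene that stands alone had a median of 782 bp (664 to 870), and the 160 touching a clustered gene 407 bp (368 to 463). This comparison was not split by coding end. Regions touching a tRNA gene had a median of 782 bp at coding ends and 453 bp away from them. Those at single genes were more often at a coding end than those at clustered genes. The 98 regions on chromosome 13 had a median of 322 bp (256 to 369), against 528 bp (432 to 625) for the 181 on other chromosomes. Width and the number of genes touched are not independent: the median went from 430 bp for 180 regions with 1 gene to 872 bp for 27 with 2, 1108 bp for 7 with 3 and 1319.5 bp for the 2 with 4. By isotype, widths were taken once per touched gene, so a region shared by several genes of an isotype counts for each of them. The median over touched genes was largest for proline, at 1008 bp (13 genes touched). Tyrosine followed with 860.5 bp (8 genes), where n-TYgta1 and n-TYgta2 share a region of 1220 bp, and then leucine with 843 bp (21 genes). It was smallest for asparagine, at 458 bp (8 genes). The order over distinct regions was not examined.

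**Figure D5:**
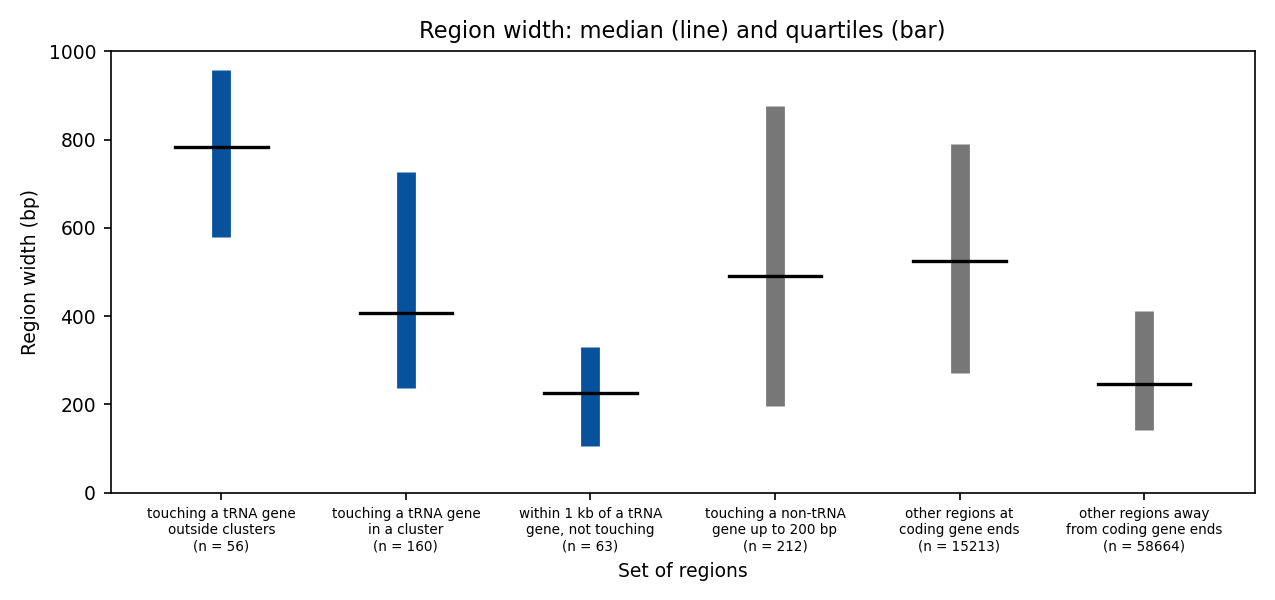
Region width (bp) in 6 sets of regions, with the median as a black line and the quartiles as the ends of the bar; blue sets lie at tRNA genes and grey sets do not. Regions touching a tRNA gene outside clusters have a median of 782 bp, those in clusters 407 bp, and those within 1 kb without touching 225 bp.

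The widest region, of 2060 bp (chr5:30887300-30889359), covered n-TYgta9 and n-TAagc15 and lay at an end of Agbl5, so it also reaches a coding gene end. The next was the region of 1743 bp on chromosome 1 described above, at an end of Fcgr3. It was followed by 1705 bp (chr3:97157978-97159682) at n-TEctc12 and an end of Acp6, by 1662 bp (chr11:115412193-115413854) over n-TRcct5, n-TRcct3 and n-TRtcg4 at an end of Mrpl58, and by 1606 bp (chr3:96458940-96460545) at n-TNgtt13, with no coding end within 1 kb. Thus 4 of the 5 widest lay at coding ends. The regions touching the most tRNA genes, 4 each, were one of 1419 bp (chr1:171101767-171103185) over n-TLcag9, n-TDgtc5, n-TGtcc3 and n-TEctc6, and one of 1220 bp (chr3:19627837-19629056) over n-TRacg3, n-TYgta1, n-TYgta2 and n-TAagc14. Other widest regions for an isotype were 1581 bp at the lysine gene n-TKctt7, 1543 bp at the proline gene n-TPagg7, 1420 bp at the isoleucine gene n-TIaat17, 1195 bp at the phenylalanine gene n-TFgaa5, 1189 bp at the threonine gene n-TTtgt1 and 1188 bp at the glutamine gene n-TQttg6. A single region of 1125 bp on chromosome 13 was the widest for methionine and serine (n-TMcat6 and n-TStga1), and one of 1108 bp on chromosome 19 for valine (n-TVtac1).

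Regions at tRNA genes lay mostly between coding genes. Of the 279, 57 (20.4%, 16.1 to 25.5) were at the end of a protein-coding gene, close to the 20.6% of all regions. Inside coding genes lay 11 (3.94%, 2.22 to 6.92) against 36.4% of the other regions, and between coding genes 211 (75.6%, 70.3 to 80.3) against 43.0%. The regions were chosen for lying near tRNA genes, and 33 of the 386 tRNA genes lay inside the span of a protein-coding gene. The shares thus describe where tRNA genes lie and are no separate trait of the regions.

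The other genes of RNA polymerase III and of tRNA metabolism were examined from lists. Of 9 non-tRNA genes transcribed by RNA polymerase III, 8 had a region within 1 kb and 7 were touched. The shares were 50% and 46.0% for all genes, whose median length was 6311 bp. For non-tRNA genes up to 200 bp they were 13.4% and 5.37%, though some of the 9 genes are longer than that. A further 2 symbols of the list, Rn7s6 and Rnu6atac, were not found in the gene table. The region was 1046 bp wide at Rn7sk, whose RNA holds back the elongation factor P-TEFb, and 1002 bp at Rmrp, the RNA of the RNase MRP complex. It was 807 and 703 bp wide at the signal recognition particle RNA genes Rn7s1 and Rn7s2, and 512 bp at Rpph1, the RNA of RNase P, which trims the 5′ end of tRNAs. It was 559 bp wide at the Y RNA gene Rny1 and 368 bp at the vault RNA gene Vaultrc5. Rny3 had a region of 96 bp within 1 kb without touching, and Rnu6 had none. Of all protein-coding genes, 62.3% had a region within 1 kb of an end. The genes of the RNA polymerase III machinery had one in 29 of 30 cases. A list of aminoacyl-tRNA synthetases, which load tRNAs, and the proteins Aimp1, Aimp2 and Eef1e1, which join them into a complex, had one in 22 of 23. A list of genes that process and modify tRNAs, in which Rpph1 is counted again, had one in 38 of 39. The exceptions were Snapc3, a subunit of the complex for small nuclear RNA promoters, Eprs, the glutamyl-prolyl synthetase, and Rpp40, a protein of RNase P. They lacked a region only at their ends, as the span of Snapc3 held 5 regions and those of Eprs and Rpp40 held 1 each. These shares are given with no test.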

How the data were processed

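Per the submitters' processing notes, the tools were MACS2 2.1.1, Bowtie2, cutadapt, bedtools, SAMtools and Picard, with the build GRCm38 (mm10). The sources used here do not give parameters, the treatment of multiply mapping reads or the merging of libraries. The authors deposited 1 list of regions with 3 columns, giving coordinates in base pairs. Starts were read as counting from 0 and are printed from 1.

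Regions were set against RefSeq gene spans of GRCm38.p6, without strand or exons. Of 430 tRNA genes, 391 were on chromosomes 1 to 19; 5 of these had positions on an unplaced scaffold and were left out, leaving 386, as were 363 of 49997 gene entries in all. The isotype and anticodon were read from the gene symbol. Overlaps used a minimum of 1 bp. Shares have 95% Wilson intervals and medians have order-statistic intervals. No test was run. Python 3.11.15, pandas 2.3.3, NumPy 2.4.6, SciPy 1.17.1 and Matplotlib 3.10.9 were used, and the overlap code was checked on simulated regions, with 0 disagreements in 1600 checks.

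Genes and regions were named by rule: the largest clusters and those with the most regions per gene, the 5 widest regions, the widest per isotype, those touching the most genes, clusters of 3 or more genes without a region, and list members without a region. Other names illustrate counts, chosen with values in view. The members and lists were chosen with earlier results of these data known.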

Additional observations from a re-analysis of the deposited data

How the results depend on the processing

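The atlas has no value, score or strand per library, so the planned comparisons between groups and the fits without 1 replicate were not run. No paired analysis was possible because the list of regions holds no value for any library. Of 26 alternatives, 20 left a share or median inside the 95% interval of the value reported, or the number of regions within 1.5 times of 279; that number was 216 for touching regions, 240 without the narrowest ones, and 249 and 293 with zones of 500 bp and 2 kb. The share of tRNA genes with a region was 68.1% when the region had to touch the gene and 64.0% for genes outside clusters. With choices made after seeing the data, it was 85.4% without cysteine genes and 79.4% without the 5 largest clusters. The smallest of these 5 was a tie at 10 genes. The one taken out was a cysteine cluster with no region. The tied cluster on chromosome 13, with a region at all 10 genes, was kept, so the 79.4% depends on how the tie was broken. The median width was 489.5 bp for touching regions, and the share of regions at coding ends was 15.8% with ends of 500 bp. The share of genes stayed between 70.8% and 76.4% under zones of 500 bp and 2 kb and a minimum overlap of 50 bp. A minimum width of about 1 nucleosome's DNA and leaving out genes at coding ends kept it in that range. So did adding chromosomes X and Y or the genes on the scaffold (the last chosen after seeing the data). Each cluster or single gene was also counted once, as having a region if any of its genes did. This held for 119 of 161 (73.9%), which is not a share of genes. Weak regions cannot be told from strong ones here, and a gene without a region may be accessible below the depth of these libraries or in copies that reads cannot tell apart.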

Other observations

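On the X chromosome, which was outside the selection, 2 of 17 tRNA genes (11.8%, 95% Wilson interval 3.29 to 34.3) had a region within 1 kb: n-TRcct4, an arginine gene, with a region of 425 bp, and n-TVtac3, a valine gene, with one of 797 bp. None of these 17 genes is for cysteine, and they carry 6 isotypes.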
